A study of Arabidopsis thaliana with 3 samples.

Results

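The circadian clock genes described here are 10 loci of Arabidopsis thaliana: CCA1, LHY, PRR9, PRR7, PRR5, TOC1, GI, ELF3, ELF4 and LUX. They were taken as a list of TAIR10 locus identifiers, and all 10 were found among the 27444 protein-coding genes of the 5 nuclear chromosomes. Open chromatin was mapped by ATAC-seq, a method based on the transposase Tn5, which places sequencing adapters in exposed DNA, and the data are 3 libraries of 1 group: roots of plants of the Col-0 ecotype, 14 days old, kept in long days on vertical plates. All plants carried the INTACT transgene, a nuclear envelope protein domain fused to GFP and a biotin acceptor, through which nuclei are caught on streptavidin beads. Its promoter was constitutive, so the nuclei came from the root as a whole and not from a chosen cell type, and a site open in few nuclei cannot be told apart from a site that is weakly open in many. The time of day at harvest is not given in the sources used here. There was no second group, so each value below is a level with its spread over 3 libraries.

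The plant clock is a loop of proteins that repress each other's genes in turn over the day. CCA1 and LHY, a pair of related MYB transcription factors, accumulate around dawn and repress genes that carry the evening element in their promoters. The pseudo-response regulators PRR9, PRR7, PRR5 and TOC1 follow in that order from morning to evening and repress CCA1 and LHY. ELF3, ELF4 and LUX form the evening complex, in which LUX binds DNA and which represses PRR9 among other targets, and GI stabilises the F-box protein ZTL, which marks TOC1 and PRR5 for degradation. The clock also runs in roots, where its timing depends in part on the shoot.

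The upstream DNA that the results turn on is given first, since the signal of these genes lay mostly before the transcription start site (TSS) and held short words known as binding sites of clock and light-response factors. Each stretch is reference sequence of the TAIR10 assembly from RefSeq, written 5′ to 3′ on the strand of its gene, with positions counted from the annotated TSS. Capitals mark matches, on either strand, to the evening element (AAAATATCT), the CCA1-binding site (AAAAATCT), the G-box (CACGTG), the LUX-binding site (GATTCG or GATACG) and the TCP site (GGNCCCAC). The longer stretches are the G-box region of CCA1 from -300 to -1 (chr2:19245291-19245590, plus strand), the region of PRR9 with 4 matches from -333 to -108 (chr2:19232274-19232499, plus strand), the stretch of GI with 3 evening elements from -825 to -567 (chr1:8060926-8061184, plus strand) and the region of LUX from -357 to -171 (chr3:17182685-17182871, plus strand). The other genes are shown by 30 bases around a match inside an accessible site, taken as merged over the 3 libraries. These are LHY (chr1:37933-37962, minus strand), PRR7 (chr5:642213-642242, minus strand), PRR5 (chr5:8358724-8358753, minus strand), TOC1 (chr5:24674802-24674831, plus strand), ELF3 (chr2:11058849-11058878, plus strand) and ELF4 (chr2:16735027-16735056, minus strand).
CCA1: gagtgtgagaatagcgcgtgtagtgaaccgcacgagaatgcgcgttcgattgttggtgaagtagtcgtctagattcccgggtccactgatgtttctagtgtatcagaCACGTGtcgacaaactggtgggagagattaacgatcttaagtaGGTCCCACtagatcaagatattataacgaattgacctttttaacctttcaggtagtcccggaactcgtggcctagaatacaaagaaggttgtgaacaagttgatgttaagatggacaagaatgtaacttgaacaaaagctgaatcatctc
LHY: tacaatatcacCACGTGtcgatctgcgatg
PRR9: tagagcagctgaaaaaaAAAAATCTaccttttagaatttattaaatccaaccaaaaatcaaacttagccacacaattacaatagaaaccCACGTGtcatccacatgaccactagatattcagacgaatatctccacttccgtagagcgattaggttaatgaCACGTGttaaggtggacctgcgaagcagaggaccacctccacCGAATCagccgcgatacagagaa
PRR7: acccaccattaCACGTGtcagttcaaaaag
PRR5: acattcgctAGATTTTTtctAGATATTTTc
TOC1: aaatatcatgAGATATTTTctccaagatga
GI: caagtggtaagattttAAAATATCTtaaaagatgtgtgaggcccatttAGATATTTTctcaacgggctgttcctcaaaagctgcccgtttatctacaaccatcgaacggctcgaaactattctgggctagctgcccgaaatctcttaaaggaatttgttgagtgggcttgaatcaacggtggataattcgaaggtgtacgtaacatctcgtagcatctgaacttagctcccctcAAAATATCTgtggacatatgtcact
LUX: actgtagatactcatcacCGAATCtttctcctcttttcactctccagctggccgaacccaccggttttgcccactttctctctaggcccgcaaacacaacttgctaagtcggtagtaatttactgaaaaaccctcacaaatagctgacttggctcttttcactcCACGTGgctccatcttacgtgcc
ELF3: tatgacattttaCGTATCctaaaagaaaac
ELF4: gatatcagataGATACGtctacgtgagata

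The libraries held an estimated 9850039, 10223285 and 18130442 reads and 26404, 36033 and 34828 accessible sites, the peaks called in each. Signal is the mean read count of the 100 bp windows in a region divided by the mean over the nuclear genome, which was 12.96, 13.60 and 23.88 reads per window in libraries 1, 2 and 3. A fold of 1 is therefore the genome average of that library. In the upstream promoters of the clock genes, the 400 bp before the TSS, the mean count per window ran from 22.8 for ELF3 in library 1 to 113 for LUX in library 3. The study describes the libraries as biological repeats, but whether they came from separate cultures is not given in the sources used here, so their spread may be in part technical. The numbers of nuclei used differed between the libraries, lowest in library 1 and highest in library 3, and their part in the differences between libraries was not tested. Of 8 root marker genes, 1 had a site in the upstream promoter in every library and 6 had none in any, and of 6 shoot markers 1 had a site in every library and 3 had none. Of all protein-coding genes, 33.5% had such a site in every library. The median upstream signal was 1.58 for the root markers, 1.18 for the shoot markers and 1.35 for all protein-coding genes.

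The upstream promoters of all 10 clock genes, the 400 bp before the annotated TSS, were above the median gene in every library, while of the 400 bp before the coding start 5 of 10 were above it in every library and 3 below. The medians over the 10 genes were 3.58, 3.78 and 3.10 in libraries 1, 2 and 3, against 1.27, 1.49 and 1.28 over all protein-coding genes. Of all genes, 43.3% lay above the median in every library. As means over libraries, the clock genes had a median of 3.53 and all genes 1.35, with quartiles of 0.807 and 2.02. The genes nevertheless ranged from 2.07 ± 0.532 (SD, n = 3) for ELF3 to 5.72 ± 0.923 for LUX, and the order was LUX, CCA1, PRR9, LHY, PRR7, PRR5, ELF4, GI, TOC1 and ELF3. Only LUX and CCA1 were neighbours in that order whose libraries did not overlap, and every other neighbouring pair overlapped. Compared within each library, however, TOC1 was above ELF3 in 3 of 3, by 0.671 ± 0.0990. PRR7 was likewise above PRR5 in 3 of 3, by 0.813 ± 0.462. Each other overlapping pair changed order in at least 1 library.

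**Figure D1:**
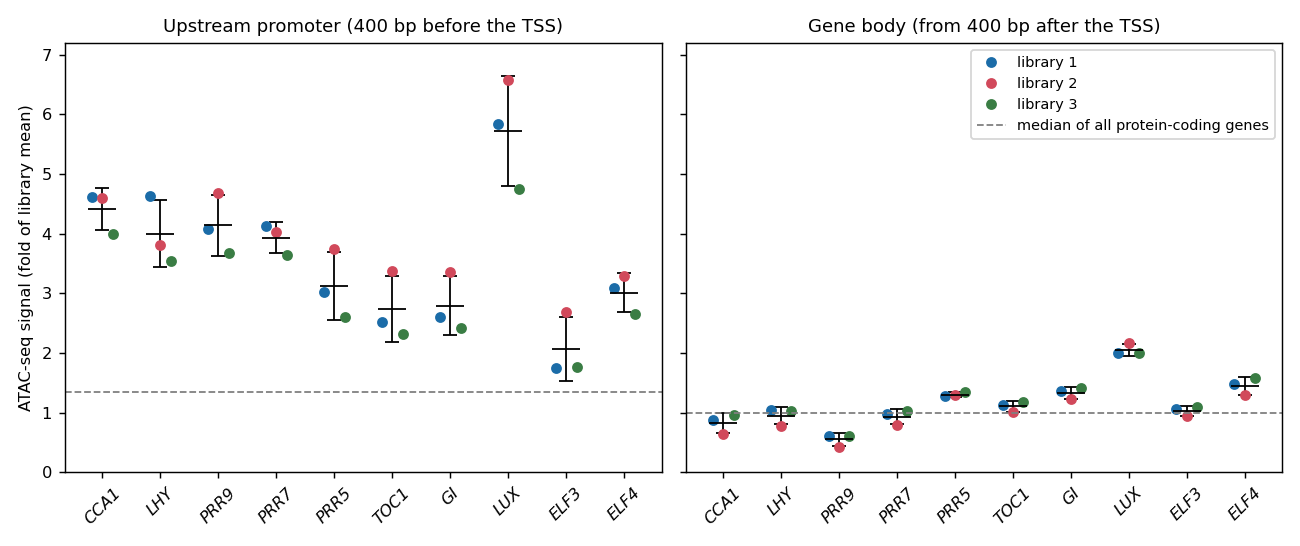
ATAC-seq signal of the 10 clock genes in the upstream promoter (left, 400 bp before the TSS) and the gene body (right, from 400 bp after the TSS to the gene end), as fold of the library mean on the vertical axis. Points are the 3 libraries, bars the mean and SD, and dashed lines the median of all protein-coding genes, 1.35 on the left and 1.00 on the right; every point on the left lies above its line, while points on the right fall on both sides.

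An accessible site overlapped the upstream promoter in every library for 9 of the 10 clock genes, where 33.5% of all protein-coding genes had such a site. ELF3 was the exception, with an upstream overlap in library 2 only. From 2000 bp before the TSS to 500 bp past the gene end the 10 genes held 33 merged sites, of which 22 were found in all 3 libraries, 3 in 2 and 8 in 1. The shared part was thus 66.7%, against 46.7% of the 43236 merged sites of the genome. Shared sites per window had a mean of 2.2 for the clock genes and 1.06 for all protein-coding genes. For genes within the length range of the clock genes it was 1.09. The clock genes were longer, with a median of 3753 bp against 2078 bp over all genes, so their windows were larger. The sites of the clock genes had a median width of 229 bp and all sites 174 bp, and the median MACS2 fold enrichment of the shared sites was 3.79 against 3.17 over 20186 shared sites. By the nearest annotated TSS of any gene, 15 of the 22 shared sites lay closest to the start of the clock gene itself. The windows were laid around these genes, and this share was not computed for the windows of other genes.

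**Figure D2:**
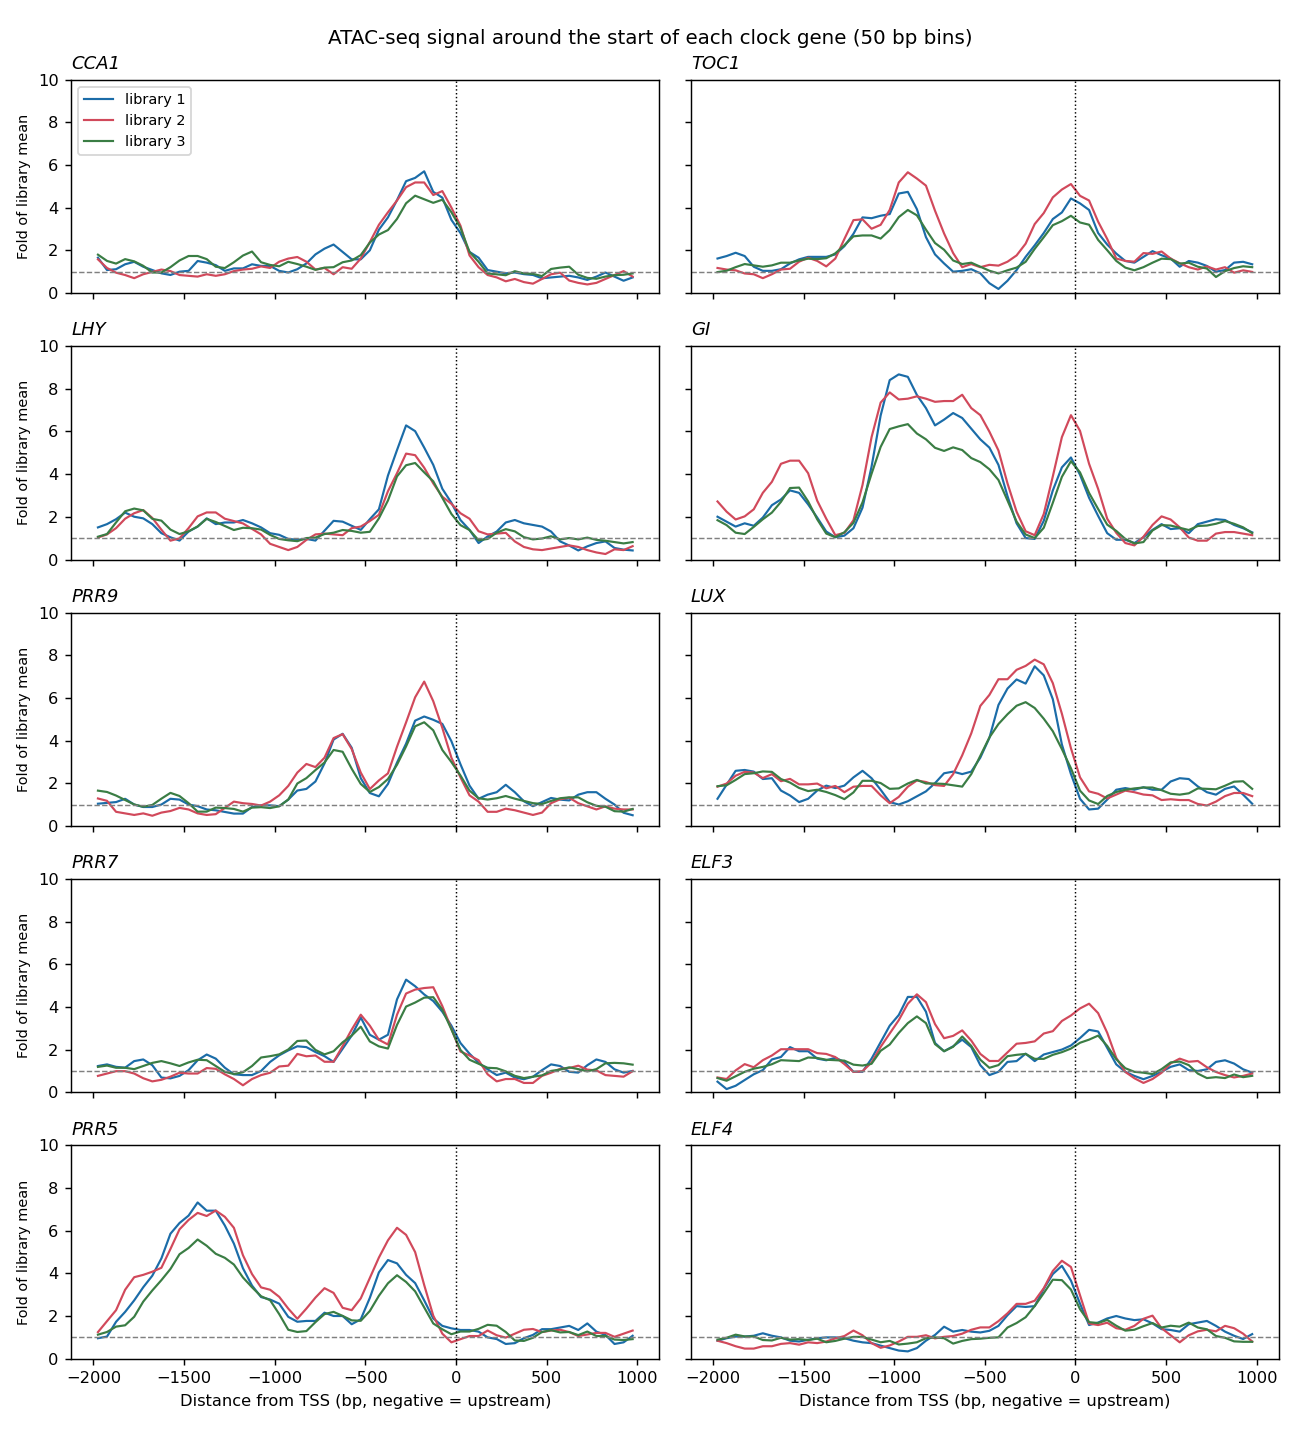
Signal in bins of 50 bp from 2000 bp before to 1000 bp after the TSS of each clock gene, with distance from the TSS in bp on the horizontal axis and fold of the library mean on the vertical axis. Lines are the 3 libraries and the dashed line is the genome mean of 1; CCA1, LHY, PRR7, ELF4 and LUX show a main rise just before the TSS, whereas PRR5, TOC1, GI and ELF3 also have a rise farther upstream whose highest bin exceeds that of the near 400 bp.

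**Figure D3:**
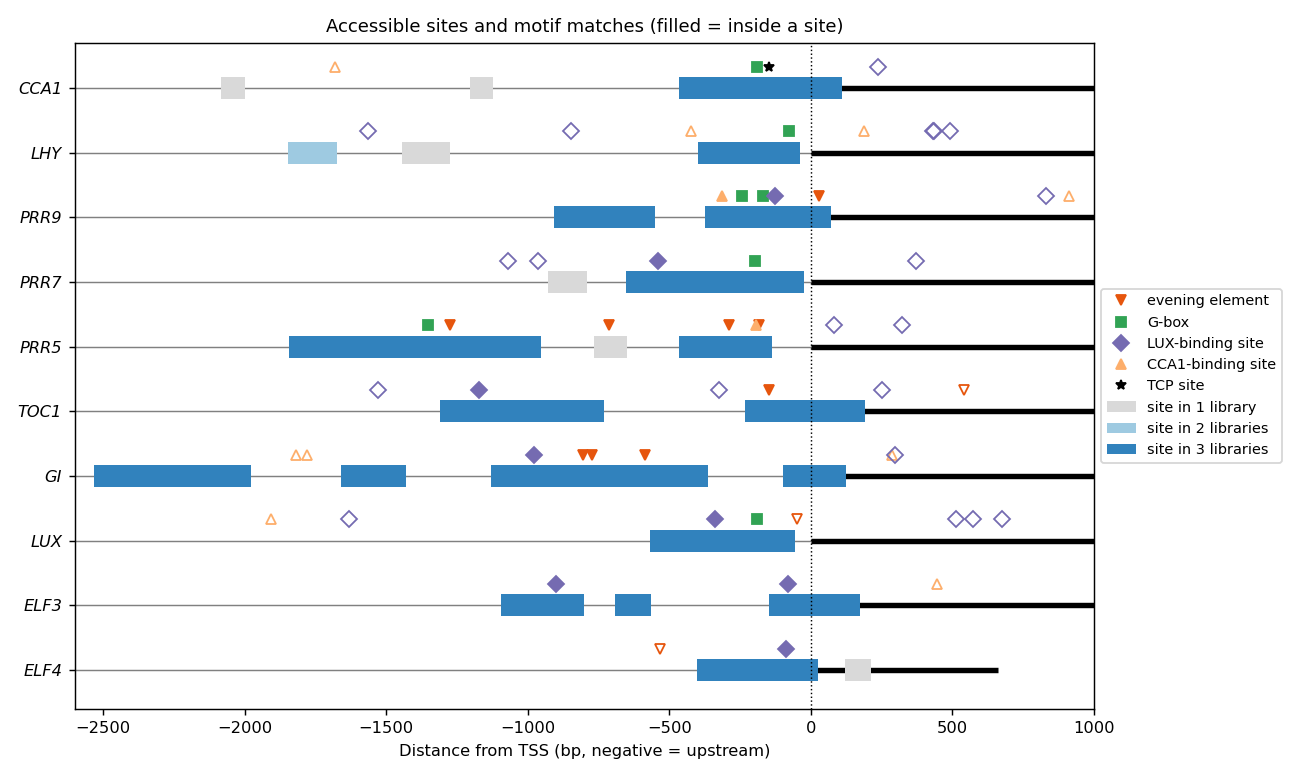
Map of the accessible sites (boxes, coloured by the number of libraries) and motif matches (symbols, filled when inside a site) against the distance from the TSS in bp, with the transcribed part as a thick line. The filled G-boxes sit before the TSS in each of the 6 genes that have them, and 3 of the evening elements lie together in the broad site upstream of GI.

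CCA1 (AT2G46830, chr2:19245591-19248915, plus strand) had an upstream signal of 4.61, 4.61 and 4.0 in libraries 1, 2 and 3. Libraries 1 and 2 were nearly equal and library 3 was lower, and the mean of 4.41 ± 0.352 lay at the 99.3 percentile of all genes. Its only shared site reached from -466 to 111 (chr2:19245125-19245702) and filled the 449 bp gap to the next gene upstream, AT2G46820 (named PSI-P in RefSeq). This site held the G-box at -191 and the TCP site at -147 that are shown in capitals above. A TCP site in the promoter of CCA1 is known to be bound by CHE, a TCP factor that represses this gene, and the word GGNCCCAC was in 1.35% of all upstream promoters. LHY (AT1G01060, chr1:33365-37871, minus strand), the close relative of CCA1, gave 4.63, 3.81 and 3.55, a mean of 3.997 ± 0.563 at the 98.5 percentile. Library 1 stood highest for LHY, and it was also the highest for CCA1 and PRR7, whereas the other 7 clock genes were highest in library 2, as were 63.8% of all genes. The upstream site of LHY (chr1:37909-38270) lay wholly between genes, ended 38 bp before the TSS and held a G-box at -77. Its other 2 shared sites lay at the 3′ end, nearest to the start of PPa1, a gene for a soluble pyrophosphatase.

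PRR9 (AT2G46790, chr2:19232607-19235179, plus strand) is the earliest of the pseudo-response regulators and lies 10411 bp from CCA1 with 3 genes between them. Its upstream signal was 4.07, 4.68 and 3.67, a mean of 4.14 ± 0.510 at the 98.8 percentile. Its site at the start (chr2:19232235-19232679) held more motif matches than any other site of the 10 genes, namely 2 G-boxes at -242 and -170, a CCA1-binding site at -313, a LUX-binding site at -128 and an evening element at 30 bp after the TSS. The evening element lay outside the peak of library 2, which ended at 11. A further shared site of 358 bp was centred at -730 and held none of the words. PRR7 (AT5G02810, chr5:637681-642030, minus strand) had an upstream signal of 4.14, 4.02 and 3.65, the closest agreement between libraries relative to its mean among the 10 genes, with a highest to lowest ratio of 1.13. The mean of 3.93 ± 0.256 was at the 98.3 percentile. Its shared site (chr5:642054-642682), as merged over the libraries, held a G-box at -198 and a LUX-binding site at -539. This site ran on across the tRNA gene AT5G02815, whose nearer end lies past a gap of 369 bp. Signal of PRR7 and of the tRNA gene cannot be told apart in the outer part of the site. The peak next to the start ended at -367 in library 1 and at -361 in library 3, before the tRNA gene. Only in library 2 did this peak run on, to -621, and cover the LUX-binding site.

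PRR5 (AT5G24470, chr5:8356204-8358546, minus strand) gave 3.02, 3.74 and 2.60 in the upstream promoter, a mean of 3.12 ± 0.576 at the 94.1 percentile. Library 2 was the highest and library 3 the lowest. The RefSeq model of PRR5 starts at the first coding base, so any transcribed leader would lie within what is called upstream here. Signal was higher still far upstream, with 6.59 ± 0.895 in the bin centred at -1425 against 4.84 ± 1.16 in the highest bin of the near 400 bp, and this order of the highest bins held in 3 of 3 libraries. Averaged over the whole sites the far site had 4.51 ± 0.635 and the near site 4.04 ± 0.940, with library 2 in the opposite order, 4.98 against 5.06. The far signal belonged to a shared site of 887 bp (chr5:8359501-8360387) that overlaps the start of the long noncoding RNA AT5G03755, on the opposite strand. PRR5 had 4 evening elements within sites, the most of the 10 genes, at -183 and -288 in its near site (chr5:8358683-8359013), at -712 in a site found in 1 library and at -1275 in the far site. A G-box at -1353 also lay in the far site, and a CCA1-binding site at -194 stood 3 bases from the nearest evening element, both in capitals above. That evening element, at -183, lay outside the peak of library 1, which ended at -196. The peak of library 3 ended within it, at -182, and the CCA1-binding site lay across the end of the library 1 peak.

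TOC1 (AT5G61380, chr5:24674963-24678550, plus strand), the evening member of the pseudo-response regulators, gave 2.51, 3.37 and 2.32 upstream, a mean of 2.74 ± 0.560 at the 89.8 percentile. Library 2 was set apart from the others, which were close to each other. The site at its start (chr5:24674732-24675155) was centred on the TSS, with summits between -40 and 5, and held the evening element at -147. A second shared site (chr5:24673653-24674234) was centred at -1020, and the bin at -925 reached 4.77 ± 0.884 against 4.39 ± 0.745 at -25, higher in 3 of 3 libraries. Over the whole sites the order was the opposite in 3 of 3 libraries, with 3.41 ± 0.570 in the outer site and 3.48 ± 0.578 in the site at the start. By library the outer site had 3.30, 4.02 and 2.90 and the site at the start 3.41, 4.09 and 2.94. The difference was smaller than the spread of either site between libraries, but both sites shared that spread. The middle of the outer site was at -286 from the start of AT5G61370, a gene read in the opposite direction, closer than to TOC1, so the accessibility of these genes cannot be told apart there. A LUX-binding site lay in it at -1171.

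GI (AT1G22770, chr1:8061751-8067790, plus strand) had the most sites of the 10 genes, 7 merged sites of which 5 were shared. Its upstream promoter gave 2.60, 3.35 and 2.42, a mean of 2.79 ± 0.494 at the 90.5 percentile. Over 1000 bp upstream, however, its signal was 5.03, 5.60 and 4.07, a mean of 4.90 ± 0.771 at the 99.97 percentile, and the order of the libraries stayed the same. The rise came from a site of 767 bp centred at -746 (chr1:8060622-8061388), where the signal was 6.52, 6.98 and 5.10, the highest mean of any shared site of the 10 genes at 6.20 ± 0.978. This was above the site on the TSS, at 4.38 ± 1.01, in 3 of 3 libraries. All 3 evening elements of GI, at -805, -773 and -587, lay inside this site, as did a LUX-binding site at -979. Another shared site of 225 bp lay on the TSS (chr1:8061652-8061876), and one of 554 bp was centred at -2255 (chr1:8059220-8059773). Neither held any of the 5 words, and the nearest gene upstream, PAB3, was 2690 bp away.

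LUX (AT3G46640, named PCL1 in RefSeq, chr3:17183042-17186959, plus strand), the DNA-binding part of the evening complex, had the highest upstream signal of the 10 genes, with 5.84, 6.58 and 4.75 in the libraries. Its mean of 5.72 ± 0.923 was at the 99.97 percentile and ranked 8 among the 27444 genes. The site (chr3:17182474-17182986) occupied the 481 bp gap to AT3G46630, a gene read in the opposite direction, and its middle was closer to the start of that gene (at -170 from it) than to that of LUX (at -312). The accessibility of both promoters therefore cannot be told apart here. By the MACS2 fold enrichment the same site was in the middle of the range, with 3.63, 3.02 and 2.67, at the 44.4 percentile of shared sites. The site held a G-box at -191 and a LUX-binding site at -337, while the evening element of LUX at -49 fell just outside it, past its end at -56. A second shared site (chr3:17185049-17185636) lay in the part of the locus covered only by the longest of 3 transcripts, centred 2300 bp after the TSS.

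ELF3 (AT2G25930, chr2:11058944-11063324, plus strand), the scaffold of the evening complex, had the lowest upstream signal, 1.75, 2.68 and 1.76, with a mean of 2.07 ± 0.532 at the 76.2 percentile. Its libraries were also the most unequal of the 10 genes, with a highest to lowest ratio of 1.53, followed by TOC1 with 1.45 and PRR5 with 1.44. The site at its start ran from 148 bp before to 174 bp after the TSS in library 2, but only from 39 to 142 bp and from 31 to 172 bp after it in libraries 1 and 3. Farther upstream the bin at -875 was at 4.21 ± 0.566 against 2.62 ± 0.857 at -25, the highest bin of the near 400 bp, in 3 of 3 libraries, and belonged to a site of 295 bp (chr2:11057849-11058143) with a LUX-binding site at -901. A LUX-binding site also lay at -81 in the merged site at the start (chr2:11058796-11059118), whose signal extended past the TSS. Only the peak of library 2 covered this match. Over the whole sites the outer one had 3.34 ± 0.437 and the one at the start 2.72 ± 0.732, and in library 2 they were nearly equal, at 3.54 and 3.56. ELF3 overlaps an antisense gene and ALPHA-VPE, and the ATAC-seq counts carry no strand. ELF4 (AT2G40080, chr2:16734294-16734953, minus strand), a short gene for a small protein that binds ELF3, gave 3.09, 3.29 and 2.66, a mean of 3.01 ± 0.322 at the 93.0 percentile. It had 1 shared site (chr2:16734929-16735354) with a LUX-binding site at -89, and its evening element at -532 lay outside.

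Within the windows of the 10 genes, 60685 bp in all, accessible sites covered 15.99% of the bases. A site is here merged over the libraries, so a match inside it can lie outside the peak of a single library. Of the 8 G-boxes in these windows 7 lay inside a site (87.5%), and of the 12 evening elements 9 did (75%). The LUX-binding site, a shorter and more frequent word, was inside for 8 of 44 matches (18.2%), and the CCA1-binding site for 2 of 19 (10.5%). The single TCP site was inside. Among the 84 matches 1 overlapped another. These shares were not computed for the windows of other genes, so whether they are particular to the clock genes was not tested. The paper reports the G-box among the top motifs of all root sites. A match is only a run of letters, and binding was not measured.

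**Figure D4:**
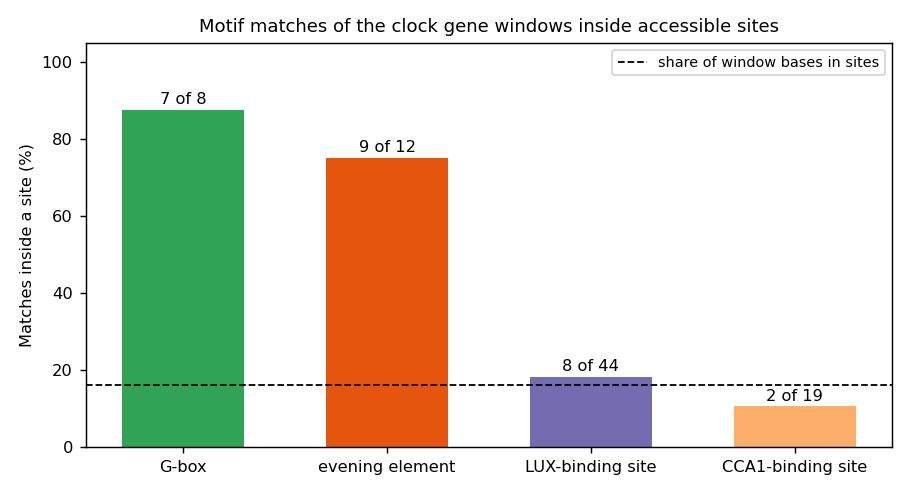
Share of the motif matches in the windows of the 10 clock genes that lay inside an accessible site, in percent, with the number of matches above each bar. The dashed line is the share of window bases in sites, 15.99%; the bars of the G-box (87.5%) and the evening element (75%) stand well above it, and those of the LUX-binding site (18.2%) and the CCA1-binding site (10.5%) are near it. The shares for the windows of other genes were not computed.

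The words were divided among the genes by their place. The 400 bp promoters of CCA1, LHY, PRR7, PRR9 and LUX held a G-box, which 8.25% of all promoters of this length held. Those of PRR5, TOC1 and LUX held an evening element, which was in 3.65% of all promoters, and GI added its 3 evening elements farther upstream. A LUX-binding site was in the promoters of PRR9, TOC1, ELF3, ELF4 and LUX, against 18.6% of all, and a CCA1-binding site in those of PRR9 and PRR5, against 10.4%. Counted over sites, an evening element was in 6 of the 33 sites (18.2%) and in 1.28% of all merged sites of the genome, and a G-box in 6 of 33 (18.2%) and in 10.04% of all. For the LUX-binding site the count was 8 of 33 (24.2%) against 12.7%, and for the CCA1-binding site 2 of 33 (6.06%) against 2.68%. The sites of the clock genes were wider than the median site. In the central 200 bp of each site, an evening element was in 3 of the 33 sites and in 1.198% of all, while a G-box was in 3 of the 33 sites and in 8.56% of all. At that equal width the LUX-binding site was in 4 sites, against 11.3% of all, and the CCA1-binding site in 1, against 2.89%.

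The gene bodies of the clock genes were close to the genome mean. From 400 bp after the TSS to the gene end their median signal was 1.07, against 1.00 over 26202 genes with a body of this kind. LUX was again highest, with 2.00, 2.17 and 1.99 and a mean of 2.06 ± 0.0979, and PRR9 lowest, with 0.609, 0.431 and 0.616 and a mean of 0.552 ± 0.105. The 3′ part of the LUX locus overlaps AT3G46650 on the opposite strand, so its gene body value includes DNA of that gene. The libraries of LUX did not overlap those of the next gene, ELF4 at 1.45 ± 0.147, and those of PRR9 did not overlap those of CCA1 at 0.828 ± 0.168. Upstream signal exceeded gene body signal in every library in 10 of 10 clock genes, as it did in 57.7% of all genes. The ratio of upstream promoter to gene body was largest for PRR9, at 6.69, 10.9 and 5.96 in the libraries, followed by CCA1 with a mean of 5.53 ± 1.54, and smallest for ELF3 at 2.04 ± 0.706. With 3 libraries an exact sign-flip permutation test cannot go below p = 0.25 (two-sided), so no call was made for single genes.

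Where the region was set changed the level. The TSS used here is the most upstream edge of each gene model. LHY has 5 annotated transcript starts, the last 641 bp after that TSS, and CCA1 has 3, the last 1090 bp after it. Measured before the coding start in place of the TSS, the median of the clock genes fell to 1.43, next to 1.34 over all genes, and LHY, whose coding sequence begins 810 bp after its TSS, fell from 3.997 to 0.820. PRR7 (0.825), CCA1 (1.17), GI (1.26) and ELF3 (1.26) were also below that median gene. PRR5 and ELF4, whose coding sequences begin at or near the TSS, stayed at 3.12 and 3.07. Over 1000 bp upstream the signal was lower for CCA1 (2.74), LHY (2.36) and ELF4 (1.83) and higher for GI (4.90). Over 200 bp on each side of the TSS it was 2.43 for LHY, 1.52 for PRR5 and 3.09 for LUX, whose sites end before the TSS.

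Other genes tied to the clock were less uniform. Of 32 such genes, 22 had a site in the upstream promoter in every library (68.8%, against 33.5% of all protein-coding genes) and 3 had none in any. Their median upstream signal was 2.41, between that of the 10 clock genes and that of all genes. The highest was LNK3 (AT3G12320), of the family of coactivators that work with the RVE factors, with 5.33, 5.46 and 4.61 and a mean of 5.13 ± 0.459. TIC (AT3G22380), a nuclear regulator of the clock, had 4.31 ± 0.819, and FKF1 (AT1G68050), a blue-light receptor with an F-box, had 3.93 ± 0.627. The lowest was ZTL (AT5G57360), the relative of FKF1 that works with GI, with 0.289, 0.386 and 0.236 and a mean of 0.304 ± 0.0763. FT (AT1G65480) and CO (AT5G15840), which link day length to flowering, had 0.359 ± 0.0934 and 0.706 ± 0.182. ZTL, FT and CO were the 3 genes with no upstream site in any library.

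**Figure D5:**
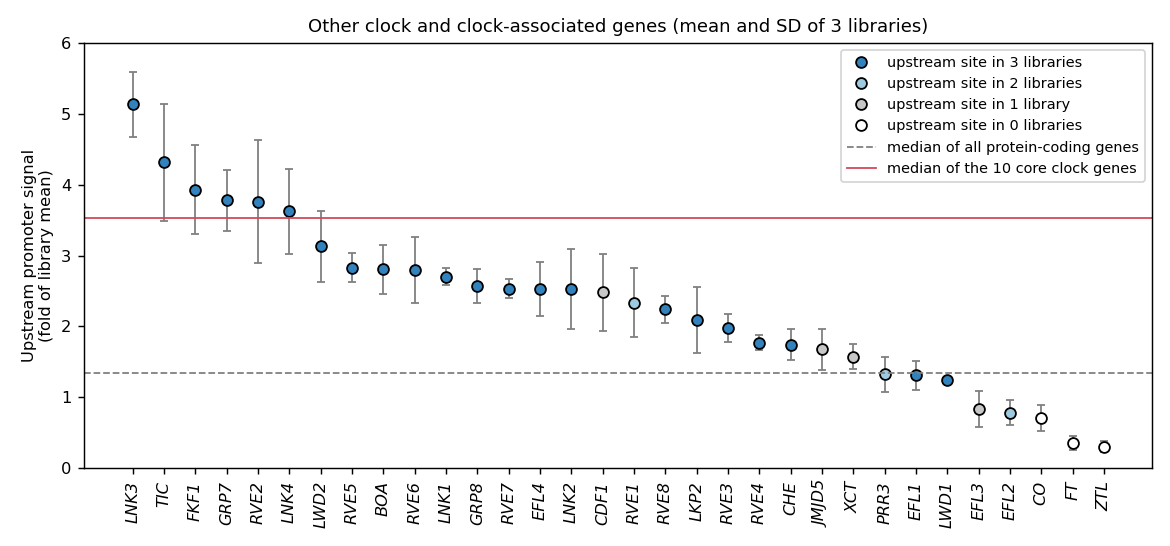
Upstream promoter signal of 32 other genes tied to the clock, as fold of the library mean (vertical axis; points are means and bars the SD of 3 libraries), ordered by level and coloured by the number of libraries with a site in the upstream promoter. The dashed line is the median of all protein-coding genes (1.35) and the solid line that of the 10 clock genes (3.53); LNK3 at 5.13 is the highest and ZTL at 0.304 the lowest.

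The mean profile of the clock genes, from 1000 bp before to 1000 bp after the TSS, was most like those of AT4G28230 (r = 0.980), POLA3 (AT5G41880, r = 0.964) and WNK7 (AT1G49160, r = 0.962) outside the list. These values of Pearson's r run over 40 bins of the mean of the same 3 libraries, and neighbouring bins share reads, so they only describe likeness of shape.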

How the data were processed

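The authors aligned single-end reads of 61 bp to TAIR10 with bowtie, keeping reads with 1 position, removed PCR duplicates with SAMtools and called peaks in each library with MACS2. The deposited tables hold raw read counts over windows of 100 bp every 25 bp, unscaled. Whether these reads were shifted to the Tn5 cut is not given in the sources used here, which could move positions by a few bases. The deposited peak lists give a score, a fold enrichment (a ratio to the MACS2 background), plus p- and q-values as −log10. The score and the p-value were not used.

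Window counts were divided by the mean over all windows of the 5 nuclear chromosomes, empty windows included, and averaged per region. Reads were estimated from the summed counts and the windows each read covers. Gene models came from RefSeq (TAIR10.1). No window started past the end of its chromosome, though where windows ended was not checked, and of 6956 windows in unsequenced runs 0 had counts. Sites were merged across libraries at an overlap of 1 bp. The libraries were not copies, since 7.20% to 13.1% of windows had equal counts between pairs. Profiles were correlated on log2 of fold plus 0.1.

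All 10 clock genes are named. Of the related list, the 3 highest and 3 lowest are named, for each gene at most the 3 shared sites of highest fold upstream or within the gene, and the 3 genes of most similar profile. The downstream site of LHY and the PRR5 site found in 1 library are outside this rule and were named after their values were seen. The members and lists were chosen with earlier results of these data known. Scripts were tested on simulated data and used Python 3.11.15, numpy 2.4.6 and pandas 2.3.3. No model was fitted, since there was 1 group.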

Additional observations from a re-analysis of the deposited data

How the results depend on the processing

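Libraries could not be paired between groups, because they form 1 group with no other to pair them with. The contrast of upstream promoter and gene body was itself paired, since it was made within each library. The median upstream signal of 3.53 moved to 2.69 over 1000 bp upstream and to 2.97 over 200 bp on each side of the TSS. Scaled to the median gene it was 2.63, which is a change of unit. Before the coding start it was 1.43, and there 5 of the 10 genes were above the median gene in every library in place of 10. Without 1 of the libraries the upstream median was between 3.37 and 3.73. The gene body median of 1.07 became 1.18 over the whole gene, and the median of the related genes, 2.41, became 1.76 over 1000 bp upstream. Of 173 alternative values 49 moved beyond the spread. These include the upstream values scaled to the median gene, where the unit itself changed. The settings for the promoter to gene body ratio and the related genes, and those restricting motif sites to shared sites or leaving out a library, were chosen after seeing the data. The 33 merged sites ranged from 23 (−log10 q of at least 5) to 33 over the settings, and the 9 genes with an upstream site from 7, with the summit required inside, to 10 over 1000 bp. Sites with a word ranged from 10 in the central 200 bp to 14. PRR5 had 2.05 from 250 bp before to 50 bp after the TSS, in place of 3.12. Except where a setting moves the region measured or changes the unit, the cause was not tested. Over 3 libraries, small differences between genes were not detectable.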

Other observations

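The G-boxes of the clock genes shared bases beyond the 6 letters. Read on either strand, 6 of the 8 matches continued as CACGTGTC, those at CCA1, LHY, PRR7, PRR9 (both) and PRR5, and all 6 lay inside an accessible site. The exceptions were the G-box of LUX, inside a site, and the G-box of PRR7 at 2654 bp after the TSS, outside any site. In the 400 bp upstream promoters alone, 5 of 6 matches of the clock genes had this extension, and 731 of 2656 matches (27.5%) in those of all genes. The word was noticed after the matches were seen, so the count is a description.

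The library with the highest upstream value depended on the scaling. Relative to the library mean, 3 of the 10 clock genes were highest in library 1 and 7 in library 2. By that scaling all genes were divided as 19.7%, 63.8% and 16.5% over libraries 1, 2 and 3. Relative to the median gene of each library, 6 were highest in library 1 and 4 in library 2, where all genes were divided as 38.5%, 35.2% and 26.4% over libraries 1, 2 and 3.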
